A study of Drosophila melanogaster with 54 samples.

Results

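In the early fly embryo, 223 genes had RNAs that were abundant at stage 4, scarce at stage 8 and abundant again at stage 15. They were chosen by their mean CPM, the counts of a gene scaled to a common total (counts per 1000000 gene counts), over the embryos of a stage. A member had at least 50 CPM at stage 4, at most 20% of that level at stage 8, and at least 50% of it at stage 15. Of 17481 gene entries, 3969 reached 50 CPM at stage 4, 703 of these had dropped to 20% or less at stage 8, and 223 of the 703 were back at 50% or more at stage 15. The other 480 lost RNAs were below 50% at stage 15. They are called lost without return here, although their summed share of gene counts rose in part after stage 8. The data come from single whole embryos of Drosophila melanogaster, for which the labels give a stage and a letter but no genotype, sex, parents or treatment. Stages 4, 6, 8 and 12 had 5 embryos each, stages 5 and 10 had 9 each, and stages 13 and 15 had 8 each. Total RNA was depleted of ribosomal RNA and sequenced as paired ends, and 8 of the 54 libraries carried no strand information.

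The fly egg is laid with a large store of RNA and protein made by the mother's germ line, and the first nuclear divisions run on this store in a shared cytoplasm. At the maternal-to-zygotic transition, maternal RNAs are degraded by pathways that include the RNA-binding protein Smaug and zygotic microRNAs, and the embryo's own genome takes over. Many genes that supply the egg encode proteins that every cell needs, and the embryo transcribes some of them again later. In the staging used here, stage 4 is the syncytial blastoderm, stage 5 the forming of cells, stage 6 the start of gastrulation, stages 8 and 10 germ band extension, stage 12 its retraction, and stages 13 and 15 the closing of the back and the differentiation of organs.

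Counts in genes came to 1632448 to 12863155 per embryo, with a median of 4713817, so 1 CPM stands for 4.71 reads at the median depth. The reads count both strands, because embryos A, B, F and G of stages 13 and 15 had non-directional libraries. Summed levels of 13 muscle markers were 6372 to 12510 CPM at stage 15, against 823 to 904 CPM at stage 4, and those of 17 neuron markers were 3818 to 4768 CPM at stage 15, against 137 to 192 CPM at stage 4; what part such new cell types had in the members' levels was not tested. The added spike-in RNAs were not used, so every level is a share of the embryo's own gene counts. Several embryos stood apart from their stage. Embryo J had the highest level among the 9 stage 5 embryos for 99 of the 223 members, embryo G among the 5 of stage 12 for 122, and embryo A among the 8 of stage 13 for 111. At stage 10 it was embryo E, for 85 members, whose members took up 1.16% of gene counts, against 0.642 to 1.12% in the other 8. Each was picked as the top embryo of its stage, and the number to be had by chance was not worked out. In stage 10 embryo C the 480 RNAs lost without return took up 1.62% of gene counts, against 1.08 to 1.28% in the other 8 stage 10 embryos.

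The values at stages 4, 8 and 15 chose the members, so they are described without a test. Of the 223 members, 220 carried a symbol and a position in the annotation, all of them protein coding, and FBgn0033465, FBgn0040237 and FBgn0025683 carried neither. Just inside the first threshold were Rbpn-5 at 50.03 CPM and Pkc98E at 50.34 CPM, and just outside were qm at 48.93 CPM and orb2 at 48.71 CPM. At stage 8, MESR6 at 19.96% of its stage 4 mean and spri at 19.84% were inside, while Herc4 at 20.02% and Tmem214 at 20.06% were outside. At stage 15, Plc21C at 50.46% and CG34126 at 50.59% were inside, and MICAL-like at 49.89% and Agpat2 at 49.81% were outside. The gene arc, whose symbol is a and which encodes a protein of epithelial junctions, followed a similar course but was no member. Its mean was 107 CPM at stage 4, 6.15 CPM at stage 5, 23.7 CPM at stage 8 and then 235 CPM at stage 15, and the 22.1% at stage 8 was above the limit. Membership depended on the scaling. TMM factors, which multiply the library size so that most genes keep their level, averaged 1.19 at stage 4, 0.995 at stage 8 and 0.95 at stage 15, and levels scaled by them gave 218 members, of which 160 were among the 223.

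Together the 223 RNAs took up nearly as large a share of gene counts at stage 4 as at stage 15, with a trough between. Their mean share was 3.88% ± 0.133 at stage 4 (SD, n = 5), 1.11% ± 0.14 at stage 5 (n = 9), 0.457% ± 0.0388 at stage 6 (n = 5) and 0.407% ± 0.0121 at stage 8 (n = 5). It was 0.853% ± 0.195 at stage 10 (n = 9), 1.77% ± 0.2 at stage 12 (n = 5), 3.22% ± 0.215 at stage 13 (n = 8) and 4.01% ± 0.127 at stage 15 (n = 8). The embryos of stages 6 and 8 overlapped slightly, and every embryo of stage 10 lay above every embryo of stages 6 and 8. The 480 RNAs lost without return made up 13.1% of gene counts at stage 4, 0.884% at stage 8 and 2.15% at stage 15. In whole embryos, fewer cells that hold an RNA and less of it in each cell cannot be told apart.

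**Figure D1:**
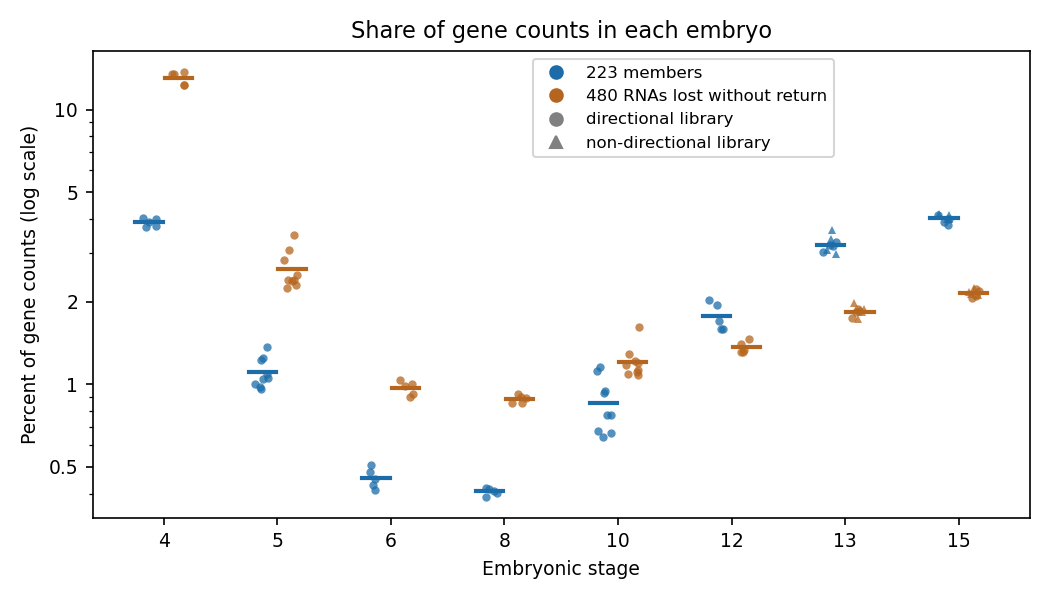
Percent of gene counts (log scale) in each embryo at 8 stages for the 223 members and for the 480 RNAs lost without return, with bars at the stage means and triangles for non-directional libraries. The members' mean ran from 3.88% at stage 4 through 0.407% at stage 8 to 4.01% at stage 15. That of the other lost RNAs ran from 13.1% at stage 4 through 0.884% at stage 8 to 2.15% at stage 15.

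Most members had dropped far by stage 5, but most had their lowest mean at a later stage. Of the 223, 160 were already at 20% or less of their stage 4 mean at stage 5, 32 were between 20 and 50%, 18 between 50 and 100%, and 13 at or above the stage 4 mean. The median member stood at 10.2% of its stage 4 mean in stage 5 embryos, 9.01% in stage 6 and 9.84% in stage 8. The stage 10 median was 18%, that of stage 12 was 35.5%, stage 13 gave 67.5% and stage 15 gave 82.2%. Stage 5 held the lowest mean of 71 members, stage 6 of 54, stage 8 of 61, stage 10 of 27 and stage 12 of 10. For the median RNA lost without return, the level was 8.25% at stage 5, 5.80% at stage 10 and 20.7% at stage 15.

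The return was spread over 4 stages. The first stage back at 50% of the stage 4 mean was stage 10 for 11 members, stage 12 for 55, stage 13 for 108 and stage 15 for 49. The 11 early ones were cdi, crol, CG3356, glec, Hr39, C1GalTA, Cph, mrt, CG1407, papi and CG9175, of which crol, Hr39 and Cph encode transcription factors. Among the 49 late ones were SREBP, ACC and Mvd of lipid metabolism and the proton pump genes Vha68-2, Vha100-2, VhaAC39-1 and Vha13. Of the late maxima, 9 fell at stage 12, 55 at stage 13 and 159 at stage 15.

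**Figure D2:**
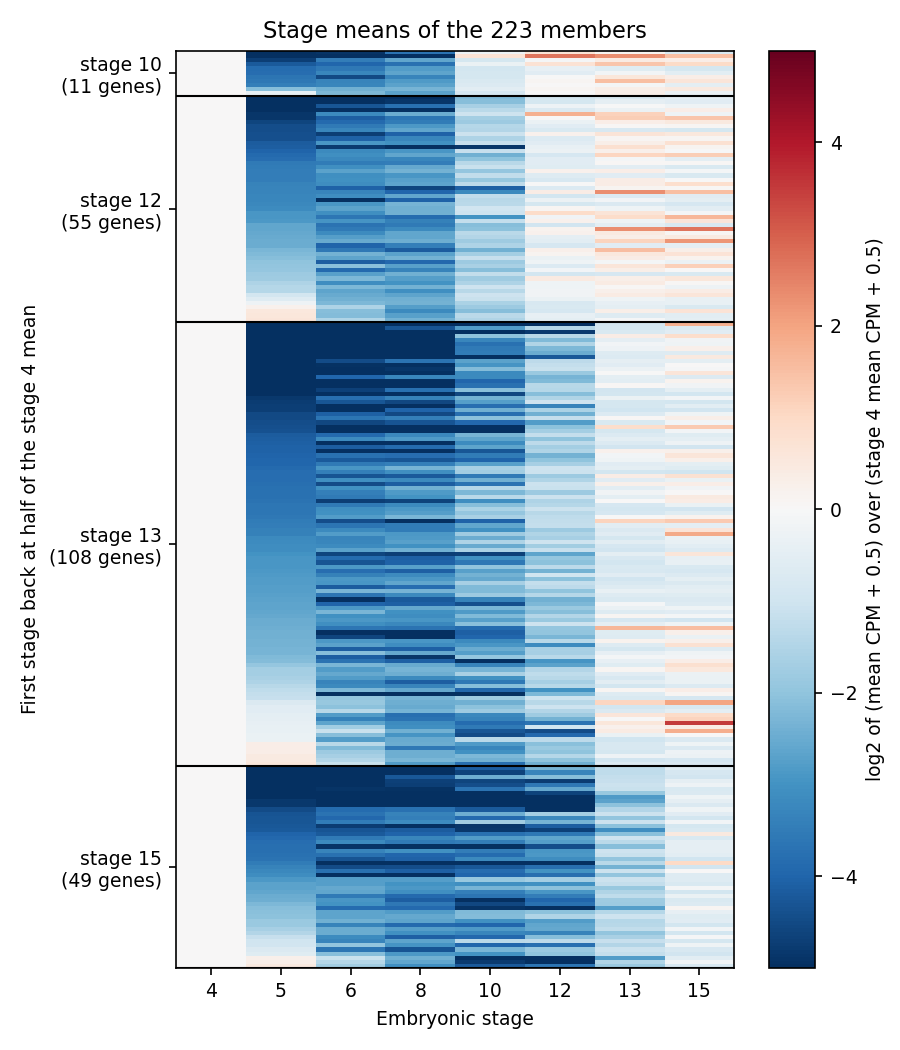
Mean level of each of the 223 members at 8 stages, as log2 of (mean CPM + 0.5) over (stage 4 mean CPM + 0.5), in blocks by the first stage back at 50% of the stage 4 mean (11, 55, 108 and 49 genes) and sorted by the stage 5 level within a block. Blue fields at stages 5 to 10 mark the trough, and the 13 members at or above their stage 4 mean at stage 5 are the pale or red fields of that column.

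Stages 5, 6, 10, 12 and 13 played no part in the choice of members, so levels were compared among them. All 9783 genes that passed a filter on low counts were tested with edgeR's quasi-likelihood test on TMM-scaled counts, two-sided, with Benjamini-Hochberg adjustment over all of them and a threshold of 0.05, and all 223 members were among them. Each log2 change of a gene carries a standard error (SE), taken as its size over the square root of the test's F statistic. Being TMM-scaled, the change can differ from the ratio of the CPM values beside it. Since nothing in the labels ties embryos to parents or collections, p-values reflect only how far these embryos spread. A member had to be abundant at the first stage sampled, low at stage 8 and high at stage 15. A net fall early and a net gain late in development are therefore both largely set by the choice. The tests show at which of the steps compared these changes took place.

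Between stages 5 and 6, more members fell than rose. At stage 6 relative to stage 5, 107 of the 223 members were lower, against a background of 21.5% of all genes tested, and 36 were higher, against 28.0%. The median log2 change was -0.49 for the members and 0.04 for all genes. Of the 480 RNAs lost without return, 45.8% were lower and 13.1% higher. These RNAs were chosen by the same early fall, so the excess of falls over all genes does not set the members apart from them. Without stage 5 embryo J, 102 members were lower and 37 higher.

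The receptor Toll (Tl), which patterns the embryo from back to belly and later acts in immunity, was the second most abundant member at stage 4 and stood higher still at stage 5. Tl (chromosome 3R, 26799041 to 26842403, plus strand, BDGP6.54) had 967, 1090, 1041, 1087 and 1040 CPM in the 5 stage 4 embryos. It had 195, 197, 220, 243 and 306 CPM in the 5 stage 6 embryos, against 1439, 1525 and 1673 CPM as the lowest, median and highest of 9 stage 5 embryos. The groups did not overlap, and the log2 change was -2.83 (SE 0.15, edgeR adjusted p = 2.143e-22). Its adaptor Myd88 had 1.76, 1.11, 2.07, 1.03 and 1.64 CPM at stage 6, against 4.81, 9.19 and 21.1 CPM as the lowest, median and highest at stage 5, a log2 change of -2.92 (SE 0.35). Every stage 6 embryo lay below every stage 5 embryo for Myd88 too. The Abl tyrosine kinase, which acts on the actin cytoskeleton and on axons, had the same course as Tl up to stage 6. Abl (3L, 16615866 to 16647882, minus strand) averaged 111 ± 29.3 CPM at stage 6 (SD, n = 5) and 483 ± 30.4 CPM at stage 5 (n = 9), and the log2 change was -2.21 (SE 0.11, edgeR adjusted p = 2.857e-24).

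The falls with the largest size at this step were those of the formin Fhos with a log2 change of -5.01 (SE 0.32), Gdap2 with -3.67 (SE 0.35), the thymine DNA glycosylase Tdg with -3.08 (SE 0.22), Spinophilin (Spn), a scaffold of protein phosphatase 1, with -3.05 (SE 0.15), and Myd88. Fhos had 1.38, 1.66, 2.07, 1.55 and 3.0 CPM at stage 6, against 18.3, 47.2 and 87.4 CPM as the lowest, median and highest at stage 5. The Fhos groups did not overlap, but its stage 5 embryos were spread widely. Myosin VIIa (ck) fell by 2.77 on the log2 scale (SE 0.16) and Pumilio (pum), an RNA-binding repressor of translation, by 2.54 (SE 0.17). In the directional libraries 78.7% of Tdg reads lay on its own strand, so part of its count may belong to an overlapping gene.

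The largest rises at stage 6 were smaller than the largest falls and began from low levels. Some lesser rises began from more, such as those of Hsp110 from a mean of 49.5 CPM at stage 5 and CCT7 from 30.2 CPM. Dacapo (dap), the inhibitor of cyclin-dependent kinase that stops the cell cycle, had 32.3, 35.5, 27.4, 36.9 and 22.4 CPM at stage 6, against 5.41, 9.20 and 15.9 CPM as the lowest, median and highest at stage 5. These groups did not overlap, and the log2 change was 1.63 (SE 0.29, edgeR adjusted p = 4.661e-06). The zinc finger gene D19A rose by 1.48 (SE 0.34), CG30159 by 1.47 (SE 0.36), CG3548 by 1.46 (SE 0.24) and Rbpn-5, a rabaptin of endosomes, by 1.30 (SE 0.22). Each of these 4 had a mean under 2 CPM at stage 5.

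From stage 6 to stage 10 the balance turned. At stage 10 relative to stage 6, 134 members were higher, against a background of 30.8%, and 37 were lower, against 29.2%. The members' median log2 change was 0.81, against 0.04 for all genes, and 34.0% of the RNAs lost without return were higher. Without stage 10 embryo C, 131 members were higher and 45 lower.

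Chronophage (Cph), a zinc finger transcription factor, had the steepest rise of all members at this step. Cph (X, 7137723 to 7241932, plus strand) had 17.6, 73.0 and 294 CPM as the lowest, median and highest of 9 stage 10 embryos, against 0.377, 0.554, 2.53, 0.775 and 1.09 CPM in the stage 6 embryos. The groups did not overlap, although stage 10 embryos ranged widely, and the log2 change was 6.68 (SE 0.65, edgeR adjusted p = 4.729e-13). Its stage 4 embryos differed as well, at 44.3, 91.8, 123, 62.1 and 20.9 CPM. The gene nebu rose by 5.23 (SE 0.45), the core 1 galactosyltransferase C1GalTA by 4.69 (SE 0.25), sestrin (Sesn) by 4.66 (SE 0.39) and the phosphatase Cdc14 by 4.65 (SE 0.37). The zinc finger gene crooked legs (crol) had 136, 235 and 363 CPM as the lowest, median and highest at stage 10, against 16.3, 16.9, 18.2, 18.9 and 23.5 CPM at stage 6, a log2 change of 3.56 (SE 0.18).

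The 37 members that were lower at stage 10 included several of those at or above their stage 4 level at stage 5. CG1927 fell by 4.27 on the log2 scale (SE 0.22), CG30440 by 3.54 (SE 0.29), the calponin-like Chd64 by 3.36 (SE 0.30), the autophagy enzyme Atg7 by 3.0 (SE 0.18) and Spec2, a partner of the GTPase Cdc42, by 2.73 (SE 0.14). CG1927 (3L, 1966725 to 1970079, minus strand) had 0.672, 2.15 and 4.93 CPM as the lowest, median and highest at stage 10, against 39.6, 30.8, 41.5, 47.5 and 45.6 CPM at stage 6. Its groups lay far apart. Abl fell once more at this step, by 0.68 (SE 0.10).

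At stage 12 relative to stage 10 nearly all changes of members were gains. There were 182 members higher, against a background of 24.5%, and 3 lower, against 23.4%. The median log2 change was 0.91 for the members and -0.01 for all genes, and 31.0% of the RNAs lost without return were higher. Without stage 12 embryo G, 170 members were higher and 4 lower. Without stage 10 embryo C the counts were 181 and 3.

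The actin nucleator cappuccino (capu) had 40.6, 68.6, 37.4, 89.0 and 74.8 CPM at stage 12, against 0.614, 1.75 and 4.25 CPM as the lowest, median and highest at stage 10. The groups did not overlap, and the log2 change was 4.74 (SE 0.22, edgeR adjusted p = 2.427e-23). Arginine kinase (Argk1), which buffers ATP in tissues of high demand, had 47.4, 68.0, 53.7, 169 and 135 CPM at stage 12, against 2.11, 2.76 and 19.5 CPM as the lowest, median and highest at stage 10, where embryo C was the highest. Its log2 change was 4.16 (SE 0.28). The groups again did not overlap. The pump subunit nrv1 and the glutamate synthase gene CG9674 each rose by 3.70 (SE 0.24 and 0.25), and the transcription factor gene Rfx by 3.67 (SE 0.23). The 3 members that fell were CG1927 with -1.76 (SE 0.42), Pka-R2, a regulatory subunit of protein kinase A, with -1.37 (SE 0.33), and the serine hydroxymethyltransferase Shmt with -0.58 (SE 0.17).

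The gain went on at stage 13. At stage 13 relative to stage 12, 186 members were higher, against a background of 31.0%, and 3 were lower, against 25%. The members' median log2 change was 1.15 and that of all genes 0.04, and 52.3% of the RNAs lost without return were higher. Within the directional libraries 181 members were higher and 1 lower, and with library type as a term 183 and 1. Without stage 13 embryo A, 182 were higher and 2 lower.

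CG13698 had the largest rise here. CG13698 (3L, 18088417 to 18106149, minus strand) had 7.98, 20.4 and 84.4 CPM as the lowest, median and highest of 8 stage 13 embryos, with embryo A the highest, against 0.172, 0.613, 0.44, 0 and 0.393 CPM in the 5 stage 12 embryos, which held 6 reads in all. The groups did not overlap, and the log2 change was 6.72 (SE 0.68, edgeR adjusted p = 4.004e-12). CG3842 rose by 5.30 (SE 0.47), Chd64 by 5.04 (SE 0.36), CG8420 by 4.38 (SE 0.35) and mulet (mlt), related to a tubulin-binding cofactor, by 4.30 (SE 0.27). Filamin (cher), which crosslinks actin, had 498, 623 and 888 CPM as the lowest, median and highest at stage 13, against 129, 94.3, 113, 124 and 134 CPM at stage 12. That was a log2 change of 2.47 (SE 0.21), with no overlap.

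The 3 members that were lower at stage 13 were dap with a log2 change of -0.58 (SE 0.24, edgeR adjusted p = 0.03393), C1GalTA with -0.52 (SE 0.17, edgeR adjusted p = 0.007136) and Oseg1, a part of the transport machinery of cilia, with -0.30 (SE 0.12, edgeR adjusted p = 0.03517). The calls of dap and Oseg1 did not hold in the directional libraries, where the edgeR adjusted p was 0.172 for dap and 0.133 for Oseg1. The dap call was also lost without stage 13 embryo A (edgeR adjusted p = 0.0617) and without stage 12 embryo C, G or H (adjusted p = 0.0583, 0.0641 and 0.0793), and the Oseg1 call without stage 12 embryo B or D (adjusted p = 0.102 and 0.0833). In the directional libraries 66.0% of Oseg1 reads lay on its own strand. Dap had its highest mean of all stages at stage 12, with 820, 1025, 902, 1078 and 1127 CPM, against 57.7, 109 and 269 CPM as the lowest, median and highest at stage 10.

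Over the whole interval, 219 members were higher at stage 13 than at stage 6, against a background of 43.2%, and 1 was lower, against 37.9%. Of the 480 RNAs lost without return, 289 (60.2%) were higher and 120 lower, with a median log2 change of 0.89. A rise over this interval was thus in part shared with the other lost RNAs, whose lower share of rises was largely set by their choice. The members' median log2 change was 2.99, and that of all genes 0.12; scaled with DESeq2's size factors these were 3.11 and 0.24. The largest gains were those of Cph with 8.32 (SE 0.65), Cdc14 with 7.11 (SE 0.35), nebu with 6.75 (SE 0.45), mlt with 6.46 (SE 0.35) and CG13698 with 6.43 (SE 0.66). The 1 member that was lower was CG1927, by 1.77 on the log2 scale (SE 0.18, edgeR adjusted p = 9.609e-13). It had 6.69, 11.5 and 24.0 CPM as the lowest, median and highest at stage 13 and regained 50% of its stage 4 level only at stage 15. The 3 members that did not pass the test were CG30440 with a log2 change of -0.15 (SE 0.26, edgeR adjusted p = 0.590), CG9132 with 0.44 (SE 0.23, adjusted p = 0.0681) and Spec2 with -0.21 (SE 0.12, adjusted p = 0.101). Without stage 13 embryo A, 219 members were higher and 2 lower, the other being Spec2 (edgeR adjusted p = 0.0323).

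**Figure D3:**
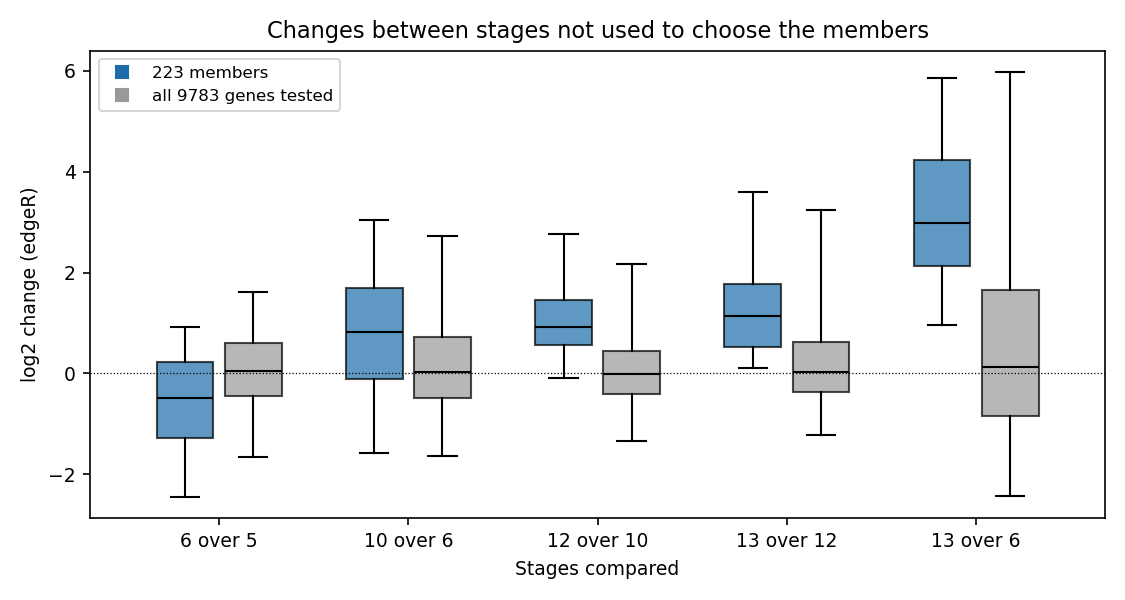
Log2 changes (edgeR) in 5 comparisons of stages that did not choose the members, for the 223 members and for all 9783 genes tested; boxes span the quartiles with a line at the median, and whiskers reach the 5th and 95th percentiles. The members' median was -0.49 at stage 6 over stage 5, above that of all genes in the other 4 comparisons, and 2.99 at stage 13 over stage 6.

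The members differed in how many steps of the return passed the test. All 3 steps after stage 6 were called higher in 37 members with no call at stage 6 relative to stage 5, in 28 members that fell at that step and in 23 that rose at it.  A further 20 fell at both early steps, rose at both late ones and were higher at stage 13 than at stage 6, and Spec2 had the same calls at the 4 steps without passing the last test. How many of all genes tested had such patterns was not worked out, so these counts describe the members and do not set them apart.

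Grouped by the known functions of their products, a choice made after the values were seen, 120 members formed 10 groups, whose median levels passed 50% of stage 4 at different stages. To read the counts of the groups, 60.1% of all members and 30.8% of all genes were called higher at stage 10 relative to stage 6, 81.6% and 24.5% at stage 12 relative to stage 10, and 83.4% and 31.0% at stage 13 relative to stage 12. At stage 6 relative to stage 5, 48.0% of the members and 21.5% of all genes were lower. Since the groups were made with the values known and are small, their counts are descriptions. The 8 genes of transcription factors, crol, Mnt, cwo, Hr78, Hr39, Cph, Rfx and foxo, had a median of 4.57% of the stage 4 level at stage 8 and 24.8% at stage 10. By stage 12 it was 62.6%, and by stage 13 it was 108%. Of the 8, 7 were called higher at stage 10 relative to stage 6. The transcription factor gene SREBP, counted with lipid metabolism, was still low at stage 12, with means of 211 CPM at stage 4, 8.34 CPM at stage 10 and 7.5 CPM at stage 12. The 15 genes of membrane traffic and glycosylation had a median of 10.1% at stage 8, 33.4% at stage 10 and 57.3% at stage 12, with 14 called higher and 1, AP-1mu, lower at stage 10 relative to stage 6. All 15 were higher at stage 12 relative to stage 10.

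The 17 genes of carbon, amino acid and nucleotide metabolism had lower medians, of 12.1% at stage 10, 19.5% at stage 12 and 46.8% at stage 13. Of the 17, 15 were called higher at stage 13 relative to stage 12, near the share of all members, and 9 first regained 50% of the stage 4 level at stage 15. The most abundant of them at stage 4 was the transketolase gene CG8036. Argk1 reached 860, 972 and 1077 CPM as the lowest, median and highest at stage 15, against 421, 379, 419, 393 and 344 CPM at stage 4. The 14 genes of lipid and sterol metabolism were at a median of 33.2% at stage 12 and 61.8% at stage 13. Among them SREBP, the transcription factor that controls lipid synthesis, had 63.8, 89.8 and 142 CPM as the lowest, median and highest at stage 13, against 5.50, 4.90, 6.16, 10.2 and 10.8 CPM at stage 12, a log2 change of 3.62 (SE 0.23) with no overlap.

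Members among the chaperones serve the cytosol, the mitochondria and the endoplasmic reticulum. The 9 genes had a median of 14.2% of the stage 4 level at stage 8 and 57.1% at stage 13, and 8 were called higher at stage 13 relative to stage 12, a share near that of all members. BiP (Hsc70-3; X, 11801696 to 11807117, minus strand), the Hsp70 of the endoplasmic reticulum, was the most abundant member at stage 4. It had 1144, 1181, 1177, 1135 and 1086 CPM at stage 4, 131, 144, 281, 185 and 125 CPM at stage 8, and 2385, 2590 and 2824 CPM as the lowest, median and highest at stage 15. Its level at stage 8 varied more among embryos than at stage 4. The mitochondrial chaperonin Hsp60A (X, 11108482 to 11112308, plus strand) had a deeper trough. It had 335, 459 and 630 CPM as the lowest, median and highest at stage 13, against 123, 135, 128, 162 and 171 CPM at stage 12, with no overlap and a log2 change of 1.70 (SE 0.19, edgeR adjusted p = 4.317e-11). At stage 6 its embryos had held 16.1, 15.2, 13.8, 14.2 and 16.1 CPM.

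The 2 members of the sodium-potassium pump, the catalytic subunit Atpalpha and the beta subunit nrv1, returned by different paths. Atpalpha (3R, 20948714 to 20976239, plus strand) had 218, 262 and 411 CPM as the lowest, median and highest at stage 10, against 84.9, 77.1, 89.2, 69.5 and 87.1 CPM at stage 6. It had thus risen by stage 10, with a log2 change of 1.69 (SE 0.13) and no overlap. The subunit nrv1 (2L, 6778555 to 6786861, minus strand) had 1.46, 4.03 and 15.0 CPM at stage 10, against 6.29, 4.44, 5.07, 6.20 and 7.37 CPM at stage 6. These groups overlapped, and the log2 change of 0.03 (SE 0.32, edgeR adjusted p = 0.951) did not pass the test. By stage 12 it had 69.8, 103, 67.1, 83.9 and 99.9 CPM.

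The 20 genes of the cytoskeleton, motors and adhesion included 15 called lower at stage 6 relative to stage 5, and their median was 5.75% at stage 8. At stage 13 relative to stage 12, 19 of the 20 were called higher, beside 83.4% of all members and 31.0% of all genes, and the median stood at 105% at stage 15. The kinesin heavy chain gene Khc had 173, 188 and 235 CPM as the lowest, median and highest at stage 13, against 18.6, 21.3, 23.5, 17.3 and 20.7 CPM at stage 6, a log2 change of 3.21 (SE 0.17) with no overlap. Signalling held another 20 genes, with the same count of 15 lower at stage 6 relative to stage 5 and a median of 80.1% at stage 13. Tl returned within it by stage 12, with 721, 836, 726, 808 and 798 CPM, against 275, 346 and 661 CPM as the lowest, median and highest at stage 10. Abl came back a stage later, with 250, 294 and 343 CPM as the lowest, median and highest at stage 13, against 110, 121, 112, 176 and 149 CPM at stage 12. Both rises had no overlap, and the log2 changes were 0.93 (SE 0.13) for Tl and 1.17 (SE 0.10) for Abl. The 9 genes of RNA binding and translation had a median of 37.7% at stage 10, with 6 of 9 higher at stage 10 relative to stage 6, also near the share of all members. Among these pum rose by 1.33 (SE 0.16) and at stage 12 relative to stage 10 showed a log2 change of 0.08 (SE 0.15, edgeR adjusted p = 0.685).

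**Figure D4:**
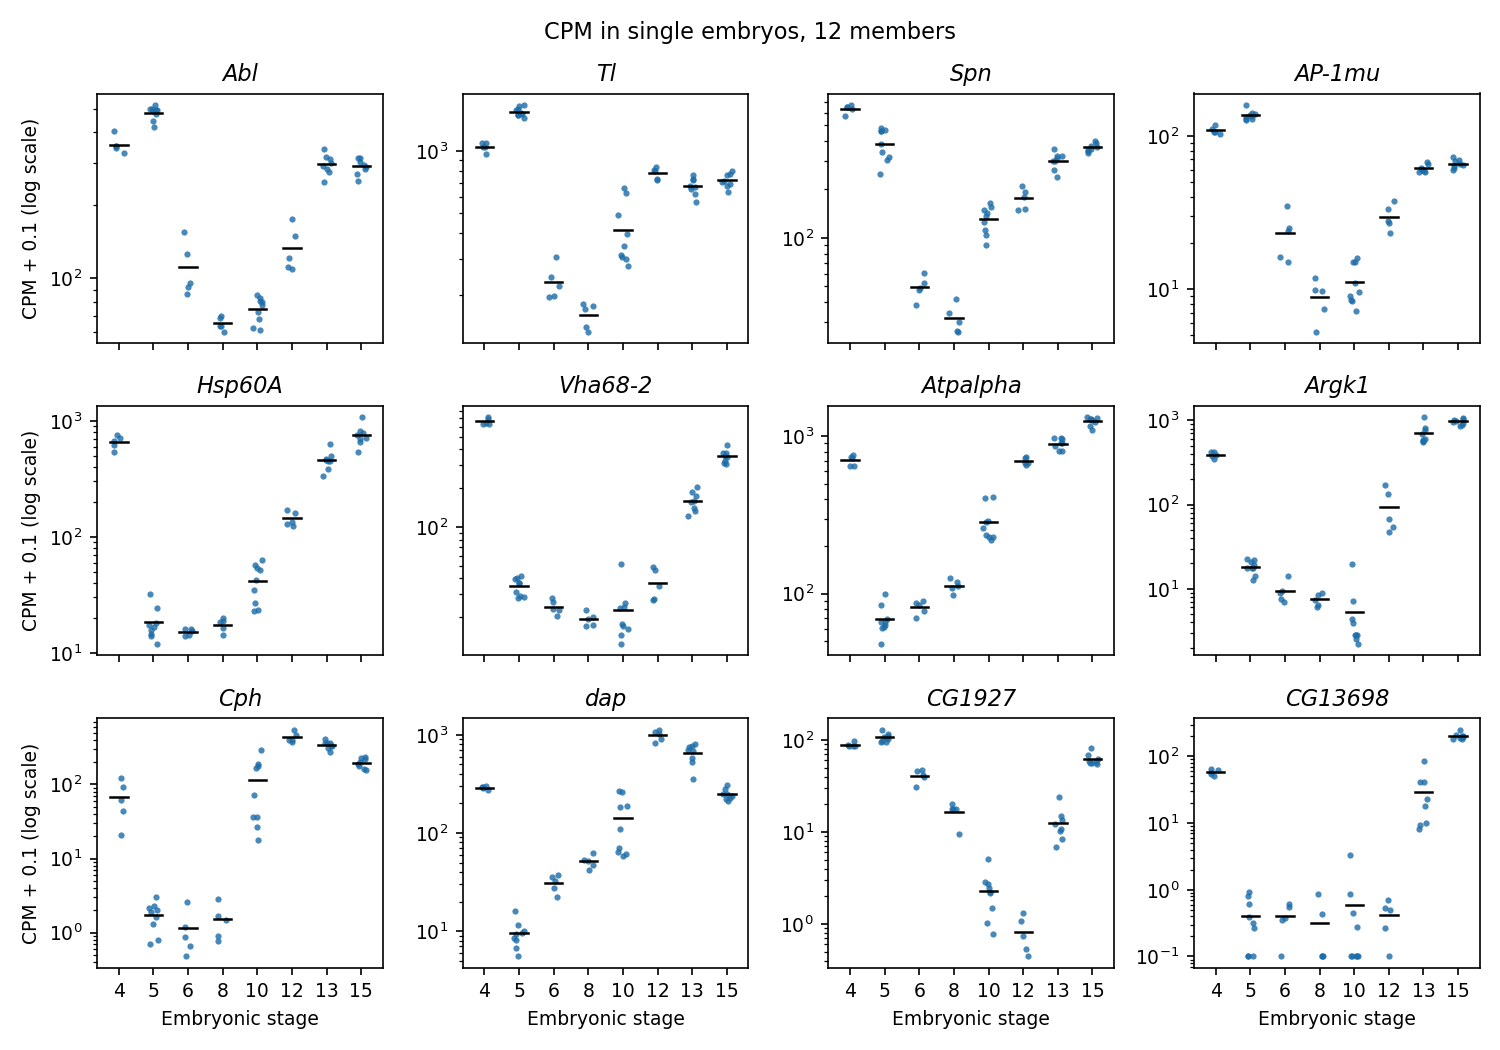
CPM + 0.1 (log scale) in every embryo at 8 stages for 12 members, with bars at the stage means. Abl, Tl, AP-1mu and CG1927 were above their stage 4 mean at stage 5, Cph and Atpalpha had risen at stage 10 relative to stage 6, and CG13698 was near 0 in all 5 stage 12 embryos.

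The members of single complexes, also chosen after the values were seen, were not always lost and regained together. Of 32 genes with names that begin with Vha, for subunits of the vacuolar proton pump, 14 had 50 CPM at stage 4, and 5 of the 14 were members. These were Vha68-2, Vha100-2, Vha13, Vha36-1 and VhaAC39-1. Vha55 was lost too, but stood at 329 CPM at stage 15 against 698 CPM at stage 4, under the limit. By contrast Vha16-1 had 334 CPM at stage 8 against 778 CPM at stage 4, and Vha100-1 had 214 CPM against 193 CPM. Vha68-2, the A subunit of the pump's catalytic head (2L, 12974322 to 12978607, plus strand), had 123, 157 and 203 CPM as the lowest, median and highest at stage 13, against 27.7, 34.9, 26.8, 49.0 and 46.3 CPM at stage 12, a log2 change of 2.13 (SE 0.19) with no overlap. With rabconnectin (Rbcn-3A), an assembly factor of the pump, 6 members belonged to it. All 6 were called higher at stage 12 relative to stage 10 and at stage 13 relative to stage 12. Of all members 81.6 and 83.4% were called higher at these steps, and of all genes 24.5 and 31.0%, so the count is near the share of all members.

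Of the 8 genes of the cytosolic chaperonin CCT, which folds actin and tubulin, CCT6 and CCT7 were members. CCT6 had 71.5 CPM at stage 8 against 431 CPM at stage 4, and CCT3 had 105 CPM against 429 CPM, so that the complex straddled the limit. Of the AP-1 adaptor, which sorts cargo at the Golgi, the genes AP-1gamma, AP-1mu and AP-1sigma were members and AP-1-2beta, shared with another adaptor, was not. AP-1-2beta had 167 CPM at stage 8 against 223 CPM at stage 4, while AP-1mu had 8.73 CPM against 108 CPM. AP-1mu was the one member of the 3 with more RNA at stage 5, at 127, 135 and 159 CPM as the lowest, median and highest, than at stage 4, at 110, 106, 106, 103 and 117 CPM. Both kinesin-1 genes (Khc and Klc), both prohibitins (Phb1 and Phb2) and both subunits of the signal recognition particle receptor (SrpRalpha and SrpRbeta) were members.

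**Figure D5:**
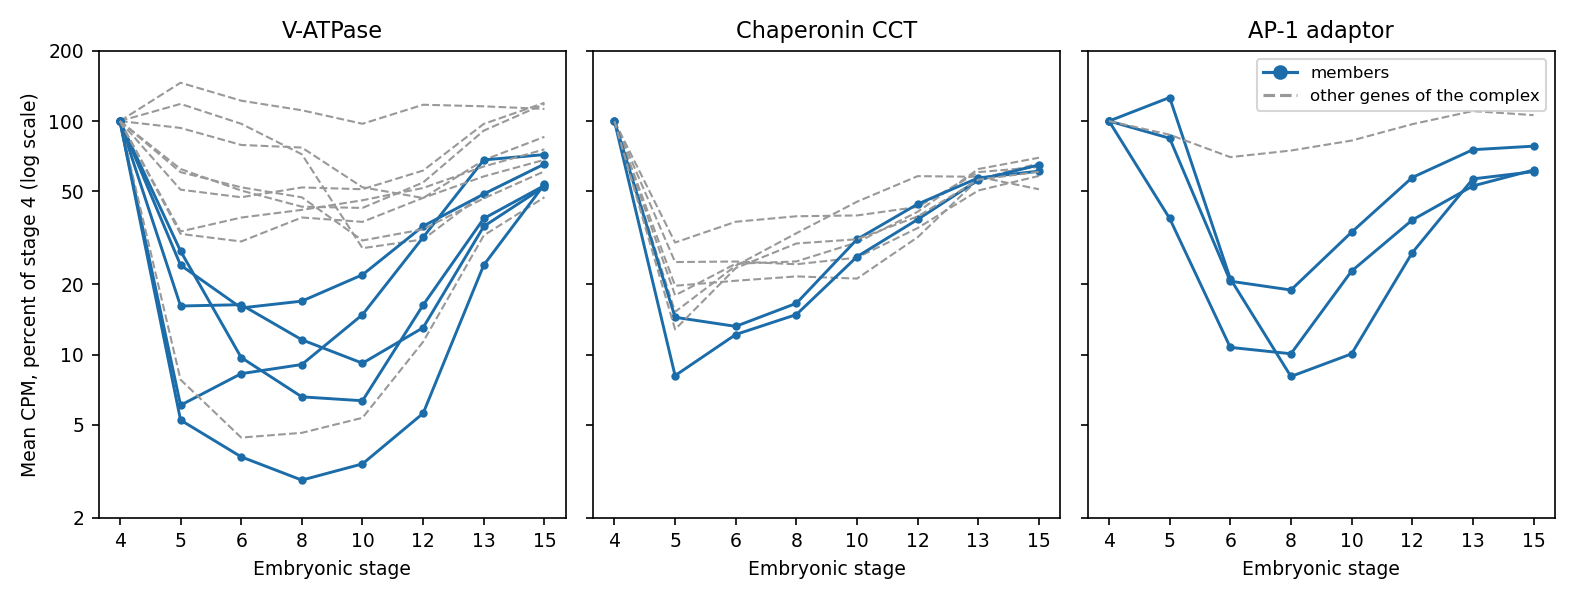
Mean CPM as percent of the stage 4 mean (log scale) at 8 stages for the genes of 3 complexes with at least 50 CPM at stage 4: 14 of the V-ATPase, 8 of the chaperonin CCT and 4 of the AP-1 adaptor. Solid lines are members (5, 2 and 3) and dashed lines other genes of the complex, which include Vha100-1 and AP-1-2beta with no deep trough.

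At stage 15, 78 of the 223 members stood above their stage 4 mean and 17 at no less than 2 times that mean. The highest ratio was that of CG8420 (3R, 9246649 to 9251431, plus strand), with 580, 771 and 900 CPM as the lowest, median and highest at stage 15, against 56.2, 60.0, 68.5, 64.4 and 84.4 CPM at stage 4, a ratio of means of 11.3. The unnamed FBgn0025683 followed with 6.50, then CG10737 with 4.69, cher with 3.93, the HMG-CoA synthase gene Hmgs with 3.75, Chd64 with 3.53, CG13698 with 3.47, the kinase gene Nuak with 3.14, the adenylyl cyclase gene rut with 2.96 and Cph with 2.88. Nearest to the lower limit were Plc21C, CG34126, CG7492, PIG-L, adp, Ahcy, CG32795, M7BP, nmd and Cht2, at ratios of 0.505 to 0.521.

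The deepest trough at stage 8 was also that of CG13698, at 0.385% of its stage 4 mean, or 5 reads in the 5 embryos. Then came nebu at 0.495%, CG3902 at 0.639%, mlt at 0.904%, Fhos at 0.913%, the glutathione transferase gene GstE6 at 0.999%, Cdc14 at 1.05%, CG17896 at 1.06%, the villin-like qua at 1.14% and Gdap2 at 1.18%. CG13698 had 51.2, 62.6, 63.9, 58.3 and 53.7 CPM in the stage 4 embryos and 0, 0, 0.779, 0.336 and 0 CPM in the stage 8 embryos. At stage 15 it had 183, 197 and 251 CPM as the lowest, median and highest, above every stage 4 embryo.

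Of all RNAs with 50 CPM at stage 4, 5.62% were members and 17.7% were lost by stage 8. Lists of genes drawn up for known functions and cell types are too short to set against the share of members. Of 35 measured genes of maternal RNA clearance and egg activation, 28 had 50 CPM at stage 4 and 9 of these were lost by stage 8, and pum was a member. Of 20 measured genes of Abl signalling and actin regulation, 17 had 50 CPM at stage 4 and Abl, a member, was the 1 lost by stage 8. At stage 13 relative to stage 6, 10 of the 34 tested genes of clearance were higher and 17 lower, and 10 of the 20 tested genes of the Abl list were higher and 7 lower, beside 43.2 and 37.9% of all genes. Of 11 measured germ line markers, 10 had 50 CPM at stage 4 and 7 were lost, with no member among them, and the 9 measured markers of follicle cells and eggshell summed to at most 54.8 CPM in any embryo. The lists of junctions and of signalling receptors had 14 and 12 genes with 50 CPM at stage 4, and 0 members. Those of neurons, glia, muscle, epidermis, trachea, gut and hemocytes had 0 to 3 such genes each, so that they could hold hardly any member, and held 0.

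In the annotation, members had longer genes with more start sites than the other lost RNAs, a description with no test. The median span was 5418 bases for 220 members, 4009 bases for 477 RNAs lost without return and 3838 bases for 3924 genes with 50 CPM at stage 4. More than 1 distinct transcript start was annotated for 57.7% of the members, 47.4% of the RNAs lost without return and 40.3% of all genes with 50 CPM at stage 4. The X chromosome held 47 members, or 21.4%, against 22.9% of the RNAs lost without return and 19% of all genes with 50 CPM. In the directional libraries, less than 80% of the reads were own-strand for 5 members, namely Tdg, Oseg1, p38b with 72.9%, Atat with 61.3% and 5PtaseI with 68.2%, and their values are uncertain.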

How the data were processed

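The authors deposited 1 table of whole-number counts per embryo, not normalized, in the layout of the aligner's count output; STAR 2.5.3a and dm6 are named in the submitters' processing notes, and the annotation counted is not given in the sources here. Column 2, reads without regard to strand, was used for all 54 embryos, since the stranded columns show 46 directional and 8 non-directional libraries. Uniquely mapped reads in no gene (0.298 to 10.6%) or in several genes (4.17 to 5.64%) stayed out of library sizes. Symbols and positions came from Ensembl release 115 of BDGP6.54.

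CPM is a gene's count per 1000000 gene counts. Tests used edgeR 4.0.16 in R 4.3.3, with all 54 embryos in 1 quasi-likelihood fit, a mean per stage, TMM scaling and filterByExpr, and 9783 genes. The code was tested on simulated data. The alternatives included DESeq2 1.42.0, other scalings, filters and strands, the title letter as a block, and each embryo left out in turn. Library type as a term and library sizes without TMM were added after seeing the data. The members and gene lists were chosen with earlier results of these data known. Named genes are Abl and a, extremes of level, ratio and change, members on lists, and genes next to a threshold; others were chosen after their values were seen. No 2 embryos of a stage agreed within counting noise (168 pairs, chi-square at least 3.93 times its degrees of freedom).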

Additional observations from a re-analysis of the deposited data

Results flagged for a closer look

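For 27 items, the embryos of each of 8 stages were examined, 216 groups of 5, 8 or 9 embryos in all. In 13 of these groups 1 embryo lay far from the others by Dixon's criterion at the 95% level, and chance gives about 1 in 20 such groups.

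Stage 10 embryo C was the highest of 9 for 45 of the 223 members, and embryo E for 85. Embryo C lay far above the other 8 by that criterion for 5 of the members examined. It had 51.9 CPM of Vha68-2, against 12.3 to 25.6 in the other 8, 19.5 CPM of Argk1, against 2.11 to 7.05, 3.22 CPM of CG13698, against 0 to 0.755, 4.93 CPM of CG1927, against 0.672 to 2.77, and 19.1 CPM of SREBP, against 4.48 to 11.3. The 480 RNAs lost without return took up 1.62% of its gene counts, against 1.08 to 1.28% in the other 8, while its share of the 223 members was 0.769%, against 0.642 to 1.16%. Whether maternal RNA left in this embryo bears on these values was not tested.

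Stage 13 embryo A had 84.4 CPM of CG13698, against 7.98 to 40.8 in the other 7, and 24.0 CPM of CG1927, against 6.69 to 14.7. At stage 15, embryo G had 251 CPM of CG13698, against 183 to 213 in the other 7, embryo F had 346 CPM of Phb2, against 223 to 275, and embryo D had 177 CPM of nrv1, against 242 to 278. Stage 6 embryo B had 7.92 CPM of CG8420, against 10.4 to 11.1 in the other 4. Stage 8 embryo C had 9.50 CPM of CG1927, against 17.6 to 20.2. Stage 5 embryo H had 159 CPM of AP-1mu, against 127 to 141 in the other 8.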

How the results depend on the processing

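The number of members was 223 and came to 122 with a minimum of 100 CPM at stage 4, 113 with at most 10% left at stage 8 and 78 with the full stage 4 mean at stage 15; each of these limits is stricter by construction. It was 218 with TMM scaling, but 63 of the 223 left and 58 others joined: of the 63, 32 fell below 50 CPM at stage 4 and 35 rose above 20% at stage 8. Leaving out 1 embryo gave 219 to 226. The counts of members higher and lower in the 5 comparisons stayed within 1.5 times their value under other scalings, filters, tests and strands, with these exceptions, whose cause was not tested. For stage 13 relative to stage 12 the 3 members lower came to 1 with the DESeq2 test, with the 36 embryos of the 5 stages, with library type as a term, in directional libraries and with own-strand counts. For stage 13 relative to stage 6 the 1 member lower came to 2 with library type as a term and with own-strand counts.

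Leaving out each embryo in turn gave 26 to 37 members higher and 102 to 107 lower at stage 6 relative to stage 5. The ranges were 128 to 141 and 34 to 45 for stage 10 relative to stage 6, 170 to 185 and 3 to 4 for stage 12 relative to stage 10, 178 to 188 and 2 to 3 for stage 13 relative to stage 12, and 218 to 220 and 1 to 2 for stage 13 relative to stage 6. Whether the title letters pair embryos was not settled. Correlations of same-letter embryos' deviations in the 5 comparisons of stages ran from -0.138 to 0.286, and 7 of 25 pairs correlated best with their own letter. The number of such pairs to be had by chance was not worked out, so these values neither show nor exclude pairing. With the letter as a replicate block the counts higher and lower were 36 and 101, 128 and 36, 186 and 3, 185 and 3, and 219 and 1 in the same order of comparisons. Of 662 alternatives for 57 single-gene results, 640 kept their direction and side of the threshold, 15 lost a call (dap and Oseg1, stage 13 relative to stage 12), 7 gained one (CG9132 and Spec2, stage 13 relative to stage 6) and 0 turned round. Library sizes without TMM, added after seeing the data, put the median log2 change of all genes at 0.129 for stage 6 relative to stage 5 and at 0.151 for stage 10 relative to stage 6, and that of the members at -0.40 and 0.94. Members under 1 CPM in a stage rest on a few reads per embryo.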
